A study of Mus musculus with 6 samples.

Results

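The Kupffer cell and macrophage genes of the liver transcriptome are 32 genes, chosen by their symbols from the 16123 genes of the deposited expression table, and all 32 were found in it. They comprise 6 genes grouped as Kupffer cell surface (with the secreted *Cd5l*), 5 scavenger and pattern receptors and 3 chains of complement C1q. Also among them are the growth factor receptor *Csf1r*, the transcription factor *Spi1*, and 4 Fc receptors and signalling adaptors. The rest are 6 lysosomal and effector proteins, 5 genes of monocytes and recruited macrophages, and the pan-leukocyte gene *Ptprc*. In KO livers 23 of the 32 genes had a higher value than in WT livers and 9 a lower one, which is 71.9% higher against 43.3% of all 16123 genes. The median log2 ratio of KO over WT was 0.16 against -0.04 for all genes. Among the abundant markers of resident cells, the C-type lectin *Clec4f* was at 895 in WT and 865 in KO livers, and the secreted scavenger protein *Cd5l* at 832 in WT and 1142 in KO livers. *Cx3cr1*, the fractalkine receptor, was the member with the largest log2 ratio, from 36 reads in KO and 11 in WT libraries. It was also the only one of 13 members with values per library in which the libraries of the genotypes did not overlap. This 1 of 13 is to be read against 3.27% of 5994 genes that did not overlap with KO above and 2.85% with KO below, and so is no result about the members.

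Kupffer cells are the resident macrophages of the liver. They line the sinusoids and take up particles, bacteria, old red cells and modified lipoproteins from portal blood. Their survival depends on signalling through the receptor encoded by *Csf1r*, and the transcription factor PU.1, encoded by *Spi1*, drives macrophage genes. In mice *Clec4f*, *Timd4* and *Vsig4* are used as markers of resident Kupffer cells, while *Ccr2*, *Cx3cr1*, *Itgam* and *Lgals3* are more typical of monocytes and of macrophages recruited from them.

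RNAseq was performed on poly-A RNA of whole liver from male mice. They were given as 2 months old, and their age after the 4-week diet is not stated. There were 3 WT pools (strain C57BL/6Rj) and 3 KO pools (strain C57BL/6JRj-Txndc5<em2Mdnp>/Ciba), each pool combining the RNA of 3 mice. KO mice lack exon 3 of *Txndc5*, which encodes a protein disulfide isomerase of the endoplasmic reticulum. The deletion was made with CRISPR and is present in every cell of the body, so macrophages carry it as well as hepatocytes, and the line descends from 1 male founder. All mice of both genotypes had received a purified chow diet for 4 weeks and were fasted for 16 h before sacrifice. The pools held between 44040160 and 46050030 clean reads, of which 91.63% to 93.66% were mapped. *Txndc5* itself was at 2697 in WT and 90.8 in KO livers, 29.7-fold lower.

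The table gives 1 value per genotype, in reads normalized by library size factors and combined by the authors over the 3 libraries, so these values have no SD and no test. The ratio between them is shrunken toward 0, so that they understate the differences of weakly expressed genes. For 13 members with few reads, the reads of each of the 6 libraries could be recovered from these values, as whole numbers. These libraries are known by genotype and size factor but not by pool number: the KO libraries had size factors of 1.31, 1.04 and 0.886 and the WT libraries of 1.22, 0.879 and 0.818. In each genotype, 1 library stood apart from the others, the one with the largest size factor. Over 3307 weakly expressed genes, the deviation of each library from the gene's mean over all 6 libraries was taken, in log2(normalized reads + 1). Between the KO 1.31 and WT 1.22 libraries these deviations correlated at 0.474, against at most 0.125 for any other pair. The deviations include any difference between the genotypes. For *Aif1*, *Ptprc* and *Cx3cr1*, results per library are therefore also given without both. For the other members with recovered reads it is stated whether the genotypes overlapped without both. In whole liver, fewer cells of a type and less RNA per cell cannot be told apart, and every p-value covers only the spread between these pools.

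By level, the members spanned more than 3 orders of magnitude. Per kb of listed transcript length, and averaged over the genotypes, *C1qb* led with 1030 normalized reads per kb, followed by *C1qc* with 771, *C1qa* with 758, *Cd5l* with 485, *Clec4f* with 367 and *Fcer1g* with 310. At the other end stood *Ms4a7* with 2.67, *Itgam* with 2.23, *Cx3cr1* with 1.94 and *Ccr2* with 0.50. The last 4 all belong to the group of monocytes and recruited macrophages, whose other gene, *Lgals3*, was at 99.1 reads per kb. Genes of the Kupffer cell surface were spread over the order, with *Vsig4* at 95.8, *Adgre1* at 29.5 and *Timd4* at 20.4. Without an SD per genotype, no order between neighbours was tested.

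**Figure D1:**
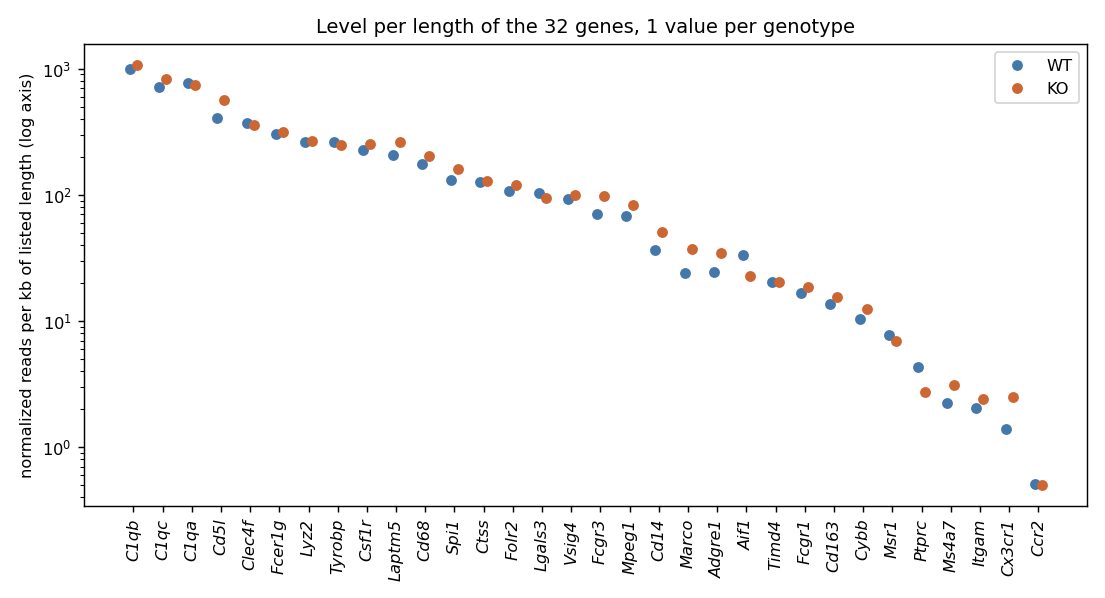
Level of each of the 32 genes in normalized reads per kb of listed transcript length (log axis), with the WT value in blue and the KO value in orange, 1 value per genotype and no error. The 3 C1q chains lie at the top with *C1qb* at 989 in WT and 1070 in KO, *Ccr2* lies lowest at 0.51 in WT and 0.50 in KO, and the values of both genotypes lie close to each other in most genes.

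At a log2 ratio beyond 0.32, chosen as the limit of a small difference, 8 members were higher in KO livers: *Cx3cr1*, *Marco*, *Adgre1*, *Fcgr3*, *Cd14*, *Ms4a7*, *Cd5l* and *Laptm5*. This is to be read against 8.55% of all genes that were higher beyond the same limit. *Aif1* and *Ptprc* were the 2 members lower by as much, against 15.5% of all genes. Among the 29 members whose genotype values averaged 10 or more, 21 were above 0 (42.3% of the 11367 genes at that level), 6 were higher beyond the limit (8.27%) and 2 lower (16.4%). Past 1.5-fold only *Cx3cr1* and *Marco* were higher, against 1.76% of all genes. *Cx3cr1* averaged 7.27, so at 10 or more *Marco* alone was higher past 1.5-fold, against 1.57% of the genes at that level. *Ptprc* alone was lower past 1.5-fold, against 5.18% of all genes and 5.79% of those averaging 10 or more. The 18 members with a mean of at least 100, whose values rest on the most reads, had a median log2 ratio of 0.13, and 14 of them were higher. Of the 7063 genes at that level 44.1% were higher, with a median of -0.03. The members were read in the same livers and are not replicates of the genotype.

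**Figure D2:**
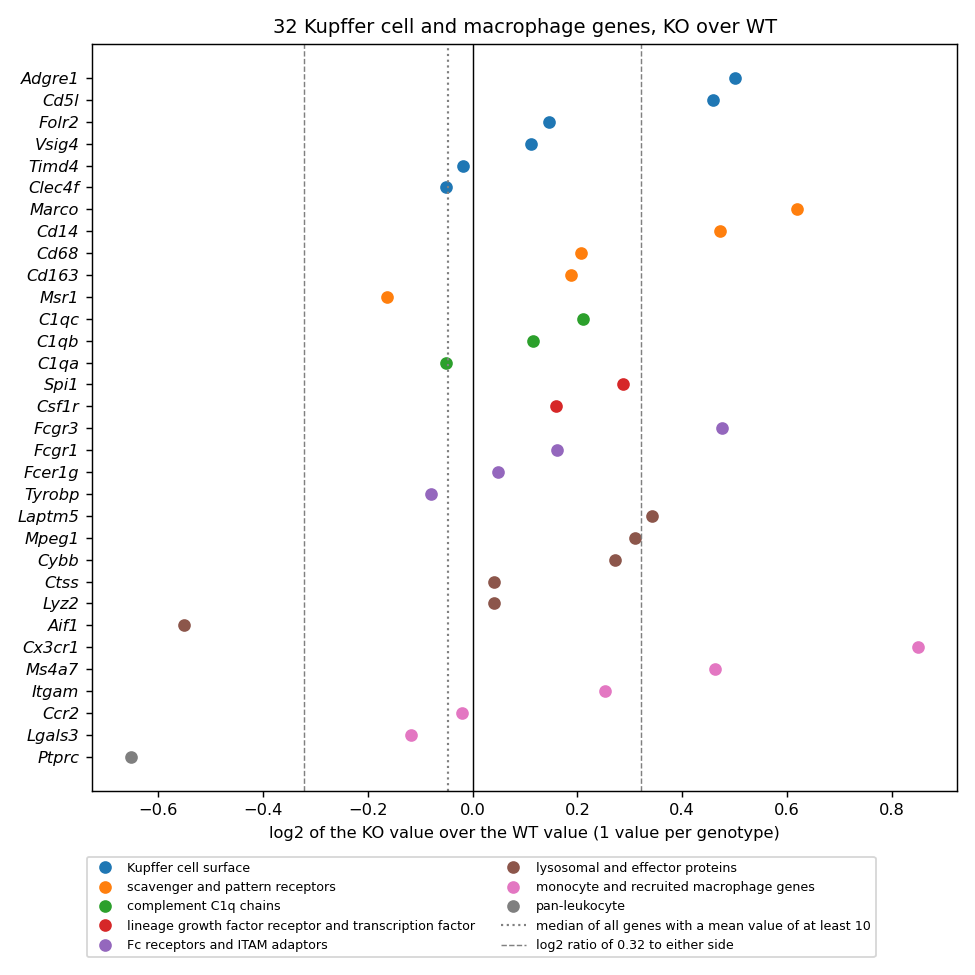
log2 ratio of the KO value over the WT value of each of the 32 genes, 1 point per gene, coloured by role, with dashed lines at 0.32 to either side and a dotted line at the median of all genes whose values average 10 or more, which is -0.05. The points run from -0.65 in *Ptprc* to 0.85 in *Cx3cr1*, and 23 of the 32 lie above 0.

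Of the 6 genes grouped as Kupffer cell surface, 4 had higher values in KO livers. *Adgre1*, which encodes the classical macrophage marker F4/80, was at 79.2 in WT and 112 in KO livers, a log2 ratio of 0.50. *Cd5l*, a secreted scavenger protein also called AIM that macrophages release into plasma, had a log2 ratio of 0.46. Both lay beyond the limit of 0.32.

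The other 4 genes grouped as Kupffer cell surface were closer to equal. *Folr2*, a folate receptor of resident macrophages, was at 118 in WT and 131 in KO livers, with a log2 ratio of 0.15. Exons of *Folr2* overlap those of *Gm10602* on the other strand, and the listed reads do not tell which gene they came from. *Vsig4*, the complement receptor CRIg that captures opsonized bacteria, was at 132 in WT and 143 in KO livers, with a log2 ratio of 0.11. *Timd4*, a receptor for phosphatidylserine on dying cells, and *Clec4f* had log2 ratios of -0.02 and -0.05. The genes of this group, *Adgre1* and the secreted *Cd5l* included, thus did not share 1 size or sign of the log2 ratio, and the differences between them were not tested. The level of *Cd5l* per kb was 1.09 times that of *Clec4f* in WT and 1.56 times in KO livers.

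*Timd4* was the 1 surface gene with reads recovered per library. It had 48.0, 31.9 and 51.9 normalized reads in the KO 1.31, 1.04 and 0.886 libraries and 37.6, 48.9 and 47.7 in the WT 1.22, 0.879 and 0.818 libraries. The means were 43.9 ± 10.6 in KO and 44.7 ± 6.23 in WT libraries (SD, n = 3), and the genotypes overlapped fully (exact permutation test, two-sided, p = 0.9). For *Adgre1*, 8 sets of reads gave the same deposited value, so its libraries were not resolved.

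Among the scavenger and pattern receptors, which bind bacterial surfaces and modified lipoproteins, 4 of 5 had higher values in KO livers. *Marco* (NCBI Gene identifier 17167, chr1:120474538-120505024), a class A scavenger receptor of Kupffer cells, was at 47.8 in WT and 73.5 in KO livers, with a log2 ratio of 0.62. *Cd14*, the co-receptor for lipopolysaccharide, was at 61.5 in WT and 85.3 in KO livers, with a log2 ratio of 0.47. *Cd68*, a lysosomal scavenger protein, and *Cd163*, the haptoglobin-hemoglobin receptor, had smaller log2 ratios of 0.21 and 0.19. *Msr1*, another class A scavenger receptor, was at 19.0 in WT and 16.99 in KO livers, with a log2 ratio of -0.16.

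In *Marco* the libraries within a genotype were far apart. The KO libraries held 52.6, 49.2 and 130 normalized reads and the WT libraries 13.9, 69.4 and 48.9, in the order of size factors given above. The difference came mostly from 1 high KO library, KO 0.886, and 1 low WT library, WT 1.22, and the other 4 lay between 48.9 and 69.4. The means were 77.2 ± 45.6 in KO and 44.1 ± 28.1 in WT libraries (SD, n = 3; exact permutation test, two-sided, p = 0.4), a 1.75-fold difference. It was 1.16-fold without the KO 0.886 library and 2.46-fold without the WT 0.879 library.

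In *Cd14* the KO libraries held 57.1, 81.1 and 124 normalized reads and the WT libraries 40.0, 52.3 and 85.6. Within each genotype the library with the smallest size factor was highest and the one with the largest was lowest, and at each place in that order the KO library was above the WT library, though the genotypes overlapped (87.5 ± 34.0 against 59.3 ± 23.6, SD, n = 3; exact permutation test, two-sided, p = 0.3). The places in that order do not pair the libraries. *Cd163*, with KO libraries at 86.1, 65.7 and 56.5 and WT libraries at 73.5, 60.3 and 45.2, had the opposite order, highest where the size factor was largest, and overlapped as well (69.4 ± 15.2 against 59.7 ± 14.1, SD, n = 3; exact permutation test, p = 0.5).

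In *Msr1* the same libraries were high in both genotypes. The KO libraries held 25.9, 12.6 and 11.3 normalized reads and the WT libraries 31.0, 11.4 and 15.9. The 2 libraries with the largest size factor were the 2 highest, 2.17 and 2.28 times the mean of the others of their genotype, and the exact permutation test gave p = 0.6.

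The 3 chains of complement C1q, the recognition molecule of the classical pathway, which liver macrophages secrete, lie side by side on the minus strand of chromosome 4 within 18675 bases (GENCODE M21 on GRCm38). *C1qb* is at chr4:136880129-136886187, *C1qc* at chr4:136889804-136893065 and *C1qa* at chr4:136895917-136898803. *C1qc* was at 760 in WT and 879 in KO livers, with a log2 ratio of 0.21. *C1qb* was at 1050 and 1137, with a log2 ratio of 0.11, and *C1qa* at 835 and 806, with -0.05. The chains assemble into 1 protein, yet their ratios did not share a sign: per kb, *C1qa* was 0.781 times *C1qb* in WT and 0.696 times in KO livers, and 1.08 and 0.901 times *C1qc*. No test is possible on these values, which have no replicate check.

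*Csf1r*, the receptor for the macrophage growth factors CSF-1 and IL-34, was at 886 in WT and 989 in KO livers, with a log2 ratio of 0.16. Exons of *Csf1r* overlap those of *Hmgxb3* on the other strand, and the listed reads do not tell which gene they came from. *Spi1* was at 194 in WT and 236 in KO livers, with a log2 ratio of 0.29. Both were higher, and both stayed under the limit of 0.32.

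As PU.1 is itself a member, the gene starts of the other members were searched for a PU.1-type motif, GAGGAAGT, on either strand from 250 bases before to 50 after each RefSeq gene start (GRCm38.p6). The promoter table held 25 of the 32 members, all but *Adgre1*, *C1qa*, *Cd14*, *Csf1r*, *Msr1*, *Spi1* and *Tyrobp*, and 2 of the 25 had the motif, or 8.0%, against 3.69% of the 27025 genes of the table and 3.57% of the 9104 of them that averaged 10 or more reads. The sites are shown with 20 bases on either side, in the direction of the gene, with the motif in capitals. In both it lies on the opposite strand, so that it reads ACTTCCTC. The *C1qc* site, chr4:136893082-136893129 on the minus strand, begins at -195 from the RefSeq gene start. For *C1qc* that start is not the start of the GENCODE position given above, to which the site lies closer. The *Ctss* site, chr3:95526764-95526811 on the plus strand, begins at -2 from the RefSeq gene start.
C1qc: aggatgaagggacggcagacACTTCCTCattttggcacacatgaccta
Ctss: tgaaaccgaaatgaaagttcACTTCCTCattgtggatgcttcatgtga
The 2 genes had log2 ratios of 0.21 and 0.04, and a match of these letters is no measure of binding.

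Fc receptors bind antibody-coated particles, and the activating ones signal through the adaptor encoded by *Fcer1g*. The group also holds *Tyrobp*, which encodes a signalling adaptor of other receptors. *Fcgr3* was at 95.1 in WT and 132 in KO livers, with a log2 ratio of 0.48. This value is uncertain, as the gene is nearly identical to *Fcgr2b* over its extracellular part and reads could be split between them. *Fcgr1*, the high-affinity receptor, was at 42.9 and 48.0, with a log2 ratio of 0.16.

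*Fcgr1* per library held 41.9, 34.8 and 68.9 normalized reads in KO and 33.5, 56.9 and 36.7 in WT libraries, where 1 library of each genotype was high and the others overlapped (48.5 ± 18.0 against 42.3 ± 12.7, SD, n = 3; exact permutation test, p = 0.6). The adaptors themselves were near equality. *Fcer1g* was at 208 in WT and 215 in KO livers, with a log2 ratio of 0.05, and *Tyrobp* at 154 and 146, with -0.08.

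Of the 6 lysosomal and effector proteins, 5 had higher values in KO livers. *Laptm5*, a lysosomal membrane protein of blood cells, was at 498 in WT and 631 in KO livers, with a log2 ratio of 0.34. *Mpeg1*, the pore-forming perforin-2, was at 294 and 364, with 0.31, just under the limit. *Cybb*, the catalytic subunit of the phagocyte NADPH oxidase, had a log2 ratio of 0.27. *Ctss*, a lysosomal cysteine protease that processes antigen, and *Lyz2*, a lysozyme with the near-identical copy *Lyz1*, both had a log2 ratio of 0.04, with 171 and 276 in WT and 176 and 283 in KO livers.

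*Cybb* held 96.8, 42.5 and 42.9 normalized reads in KO and 66.1, 43.2 and 35.5 in WT libraries. The library with the largest size factor was highest in both genotypes, 2.27 and 1.68 times the mean of the others, and without the KO 1.31 library the KO mean was 0.884 times that of WT (60.7 ± 31.2 against 48.3 ± 15.9 with all libraries, SD, n = 3; exact permutation test, p = 0.7).

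*Aif1* (NCBI Gene identifier 11629, chr17:35170991-35176068), which encodes the actin-bundling macrophage protein IBA1, differed in sign from the rest of this group. It was at 29.0 in WT and 19.8 in KO livers, with a log2 ratio of -0.55. The KO libraries held 25.9, 19.3 and 9.03 normalized reads and the WT libraries 17.1, 44.4 and 30.6. The WT 1.22 library alone made the genotypes overlap (18.1 ± 8.504 against 30.7 ± 13.6, SD, n = 3; exact permutation test, p = 0.3), and without it every KO library was below every WT library. Without both libraries with the largest size factor, the means were 14.2 in KO and 37.5 in WT libraries, with limma giving an unadjusted p of 0.0200 and an adjusted p of 0.943. In that fit, chosen after seeing the data, 154 of 3307 genes (4.66%) had an unadjusted p under 0.05.

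The 5 genes of monocytes and recruited macrophages were few in reads except for *Lgals3*. *Cx3cr1* (NCBI Gene identifier 13051, chr9:119901616-120069879) was at 5.19 in WT and 9.35 in KO livers, with a log2 ratio of 0.85. It had 36 reads over the 3 KO libraries and 11 over the 3 WT libraries. In normalized reads these were 14.5, 9.65 and 7.90 in KO and 3.27, 3.41 and 4.89 in WT libraries. Every KO library was above every WT library, as in 3.27% of the 5994 genes with a sum of at least 10 (in 2.85% every KO library was below).

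The means of *Cx3cr1* were 10.7 ± 3.40 in KO and 3.86 ± 0.899 in WT libraries (SD, n = 3), 2.77-fold higher, with p = 0.1 in the two-sided exact permutation test, which is the smallest p that 3 libraries against 3 allow. The counting error alone gives the ratio of the pooled reads, 2.96, an interval of 1.47 to 6.44 (95%, exact). The fold was 2.28 without the KO 1.31 library, and the log2 ratio fell from 1.47 to 1.08 without both libraries with the largest size factor. In limma with a sum of at least 20, the log2 difference was 1.24 with an SE of 0.58, and the adjusted p was 0.999. The exons of *Cx3cr1* overlap those of *Gm33858* on the other strand, and the listed reads do not tell which gene they came from.

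The other genes of this group with recovered reads, which leaves out *Lgals3*, overlapped between the genotypes. *Ms4a7*, a tetraspan protein of macrophages, held 6.86, 6.76 and 1.13 normalized reads in KO and 0.816, 3.41 and 2.45 in WT libraries, from 17 and 6 reads, where 2 KO libraries were above all WT libraries and the third was below 2 of them (exact permutation test, p = 0.3). *Itgam*, the integrin CD11b, held 12.2, 6.76 and 16.9 in KO and 14.7, 4.55 and 7.34 in WT libraries (exact permutation test, p = 0.6). Its exons overlap those of *Gm49368* on the same strand, so its reads are uncertain.

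*Ccr2*, the chemokine receptor that monocytes need to leave the bone marrow, had 12 reads in all. It held 3.05, 0 and 2.26 normalized reads in KO and 3.27, 2.27 and 0 in WT libraries, so a difference was not detectable at this depth. *Lgals3*, the lectin galectin-3, was at 143 in WT and 132 in KO livers, with a log2 ratio of -0.12. Of the 13 members with recovered reads, *Cx3cr1* alone had libraries that did not overlap, to be read against the 3.27% of genes above, and no member had every KO library below every WT library.

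*Ptprc* (NCBI Gene identifier 19264, chr1:138062861-138175708) encodes CD45, a tyrosine phosphatase on nearly all white blood cells and not on macrophages alone. It was at 22.2 in WT and 14.1 in KO livers, with a log2 ratio of -0.65, the lowest of the members. The KO libraries held 19.0, 5.79 and 12.4 normalized reads and the WT libraries 40.8, 12.5 and 18.3. In each genotype the library with the largest size factor was highest, and the KO library with the largest size factor reached above 2 of the WT libraries (12.4 ± 6.63 against 23.9 ± 14.95, SD, n = 3; exact permutation test, p = 0.4). The KO mean was 0.520 times that of WT, and 0.805 times without the WT 1.22 library. Without both libraries with the largest size factor, every KO library was below every WT library in *Ptprc* and *Aif1*, as in 18.8% of the 5994 genes. In *Cx3cr1* every KO library was above, as in 14.8%. The margin in *Ptprc* was 12.4 in KO 0.886 against 12.5 in WT 0.879, each from 11 reads, so it came from the size factors alone. The other 10 members overlapped without these 2 libraries as well. Among them, leaving out both took the log2 ratio of mean normalized reads from 0.433 to 0.995 in *Itgam* and from 1.14 to 0.429 in *Ms4a7*.

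**Figure D3:**
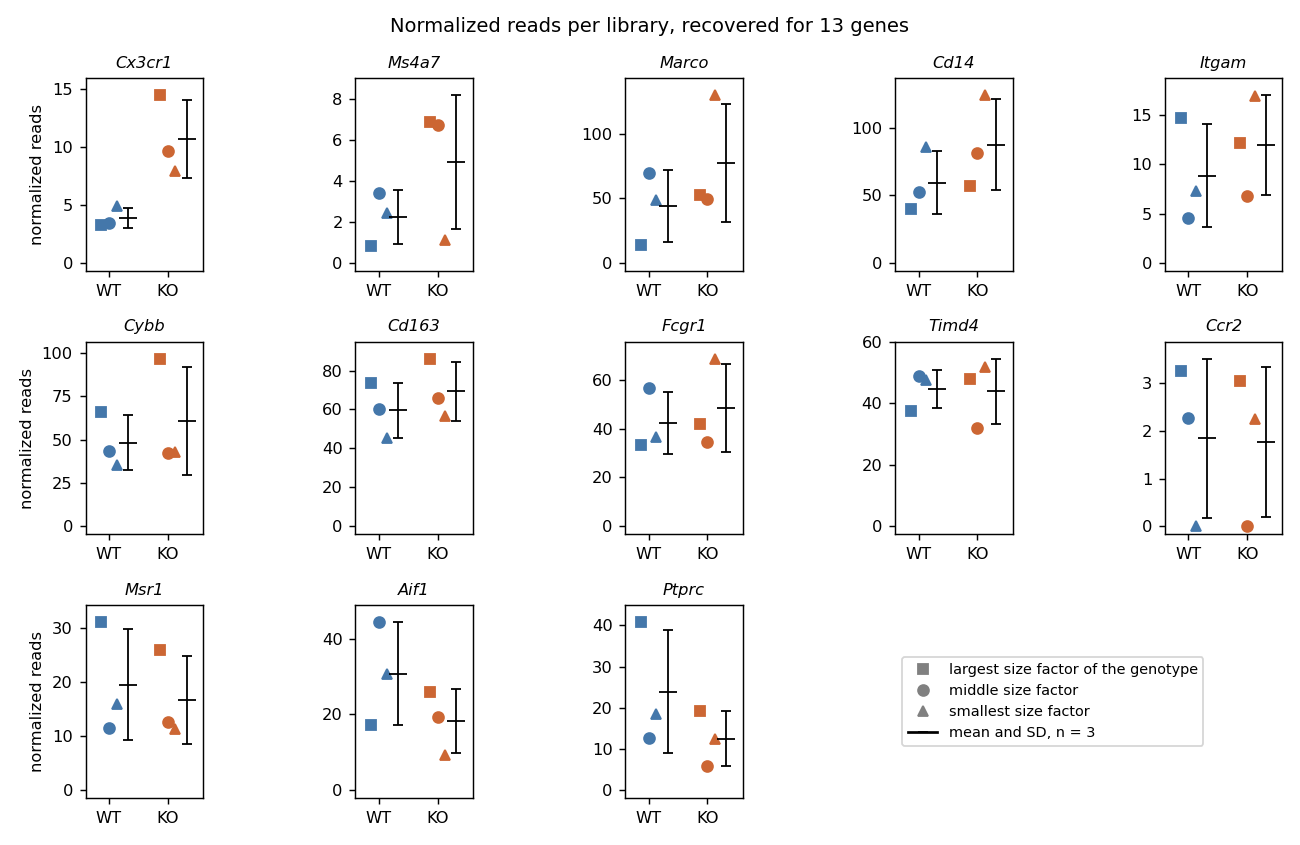
Normalized reads in each library (vertical axis, scaled per gene) for the 13 genes whose reads could be recovered, with WT libraries in blue and KO libraries in orange, marker shapes for the order of size factors within the genotype, and bars for the mean and SD of 3 libraries. *Cx3cr1* is the 1 gene in which all KO libraries, from 7.90 to 14.5, lie above all WT libraries, from 3.27 to 4.89.

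Over the 13 genes together, the summed normalized reads were 490, 366 and 535 in the KO libraries and 376, 413 and 379 in the WT libraries. The WT libraries lay within a narrow range (389 ± 20.6, SD, n = 3), and the KO libraries spread wider (464 ± 87.6) and reached both above and below them. By gene, the KO 0.886 library was highest in 5 of the 13 genes and the KO 1.31 library in 4, while the WT 1.22 library was highest in 3 and lowest in 5. In the KO 0.886 library, *Marco* with 130 and *Cd14* with 124 were part of the sum of 535. The other members have no value per library.

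Across 3307 weakly expressed genes, whose normalized reads summed to 60 to 400, limma on log2(normalized reads + 1) called 0 genes at an adjusted p under 0.05 (0%), and 54 (1.63%) had an unadjusted p under 0.05. In edgeR's quasi-likelihood test the numbers were 0 (0%) and 65 (1.97%). Of the 13 members, 9 lay in this range, and none of the 9 had an unadjusted p under 0.05 in either test. Their log2 differences ran from -0.86 in *Ptprc* (SE 0.59) over -0.75 in *Aif1* (SE 0.53) to 0.92 in *Marco* (SE 0.58), each with an adjusted p of 0.999 in limma. With a term joining the libraries of largest size factor, *Marco* had an unadjusted p of 0.0335 and an adjusted p of 0.619, where 251 of the 3307 genes (7.59%) had an unadjusted p under 0.05.

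Other genes of macrophages, drawn from a list of 43 that includes phagocyte oxidase subunits, Toll-like receptors and cytokine receptors, were read in the same way. All 43 were found, and 30 were higher in KO livers (69.8%, against 43.3% of all genes), with a median log2 ratio of 0.12. Beyond 0.32, 10 were higher and 4 lower, against 8.55% and 15.5% of all genes. The genes with the largest log2 ratios, among those averaging 10 or more, were *Csf2rb*, the shared beta chain of the GM-CSF, IL-3 and IL-5 receptors, at 87.1 in WT and 131 in KO livers, *Fcgr4* at 55.5 and 80.9, and *Ncf1* at 53.1 and 77.4.

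The libraries of 2 of these genes were resolved and did not overlap. *Fcgr4*, an activating Fc receptor, held 70.1, 91.7 and 85.8 normalized reads in KO and 52.3, 61.4 and 47.7 in WT libraries. *Ncf1*, the p47phox subunit of the phagocyte oxidase, held 70.1, 63.7 and 104 in KO and 47.4, 45.5 and 61.1 in WT libraries, with a log2 difference of 0.60 (SE 0.31) and an adjusted p of 0.999 in limma. Both genes were named for the size of their log2 ratio, which favours libraries that do not overlap. The 3.27% above covers genes not chosen in this way and is no background for them. The 22 genes of the list with recovered reads summed to 561, 537 and 635 in KO and 526, 525 and 517 in WT libraries. This sum contains *Fcgr4* and *Ncf1*, so its order of libraries is no separate result and does not speak for the rest of the list.

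Markers of other cells of the liver were read in the same table. All 7 red cell genes were higher in KO livers beyond 0.32, against 8.55% of all genes. Their median log2 ratio was 0.78, and their summed value was 118834 in WT and 180440 in KO livers. None of their defining genes was at 0, and *Hbb-bs* was at 25147 in WT and 43522 in KO livers. All 5 B cell genes found, of 6 listed, were lower, where 43.3% of all genes were higher. They had a median of -0.48 and a recovered sum between 38.9 and 63.2 in KO and between 42.5 and 88.7 in WT libraries. The 8 T and NK cell genes found, of 10 listed, had a median of -0.15, with sums from 56.0 to 78.5 in KO and from 53.9 to 144 in WT libraries. *Ptprc*, which B and T cells express too, was highest of the WT libraries in WT 1.22, which had the lowest sum of both lists among them. The part of red cells and lymphocytes in the members' values was not tested.

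Genes of other liver cells went in both directions, and the medians of their lists lay near that of all genes. The 10 sinusoidal endothelial genes had a median log2 ratio of -0.04, the 8 stellate cell genes of -0.06 and the 8 hepatocyte genes of -0.07. Of the stellate cell genes, 2 were higher beyond 0.32, *Col1a1* and *Col3a1* with log2 ratios of 0.76 and 0.56, against 8.55% of all genes. Another 3 were lower beyond it, against 15.5% of all genes. Hepatocyte genes reached down to -0.52 in *Apob*. The members' median of 0.16 lay above these 3, and the difference between lists was not tested.

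**Figure D4:**
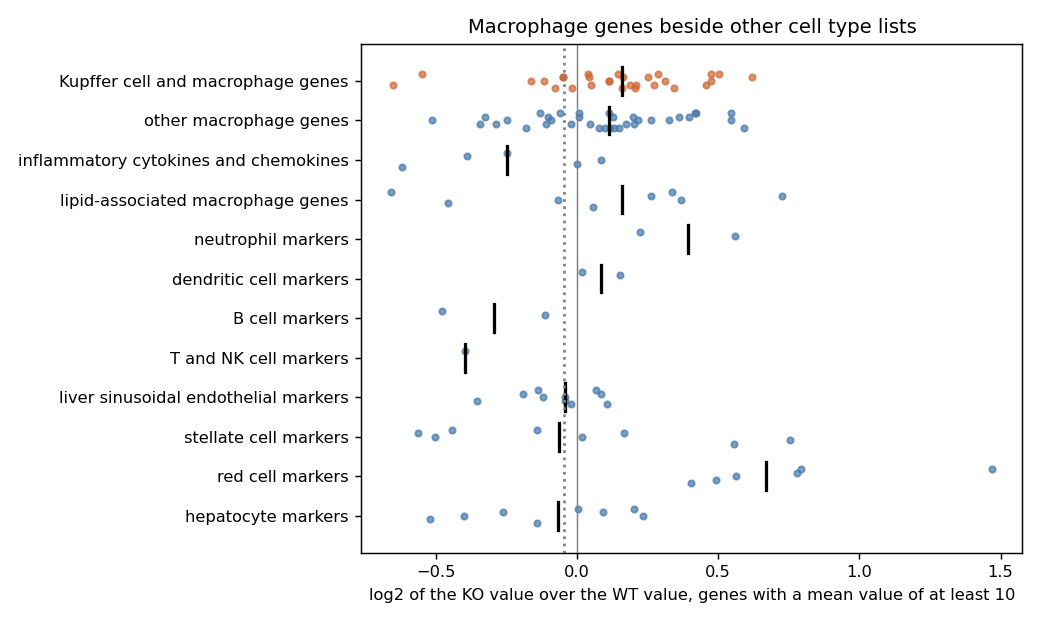
log2 ratio of the KO value over the WT value for genes of 12 lists that average 10 or more, 1 point per gene, with a black bar at the median of the list and a dotted line at the median of all such genes, -0.05. The Kupffer cell and macrophage genes (orange) have a median of 0.16 and the other macrophage genes of 0.11, while the red cell genes lie highest with a median of 0.67.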

How the data were processed

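The authors sequenced 3 WT and 3 KO liver RNA pools, and their sequencing service mapped and counted the reads. The submitters' processing notes name HISAT2, StringTie, Cufflinks, GATK, Bowtie2 and RSEM without roles, and the build mm10. The signal deposited by the authors for each of 16123 genes is 1 value per genotype, in reads scaled by the size factors of DESeq2 and combined over 3 libraries. Its midpoint is the mean normalized read count, and its ratio is shrunken (slope of 0.759 against recovered ratios over 1890 genes). The deposited log2 ratios and p-values of the authors' own comparison were not used. Depth and mapping percent values were deposited by the authors per library.

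The planned test for 1 value per library was replaced, as designed for a table with 1 value per genotype, by a description of both values and of the counts beyond a log2 ratio of 0.32. Read counts per library were recovered as whole numbers from the deposited mean values, which hold 15 significant digits: 8063 of 8081 genes with a sum up to 400 gave a single set (99.8%), and all 1128 genes with a ratio past 0.5 that were resolved without use of the direction had the listed direction. Between 400 and 600, 475 of 979 were resolved. On simulated data, 7708 of 7732 genes were resolved, and all 7708 were right. Recovered reads are a small part of each library, so genes with few reads have a large counting error.

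limma 3.58.1 (trend, Benjamini-Hochberg adjustment) and edgeR 4.0.16 compared the genotypes over 3307 genes with sums between 60 and 400, with a pseudocount of 1 in limma. Single genes were tested with two-sided exact permutation tests, whose smallest p is 0.1. Nothing states that pools of 1 genotype came from separate litters or cages. Positions are from GENCODE M21 on GRCm38, promoters from RefSeq. The genes named are the 32 members, *Txndc5*, and at most the 3 genes with the largest absolute log2 ratio of a list. Genes that overlap or resemble a member are named for that alone. The members and lists were chosen with earlier results of these data known.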

Additional observations from a re-analysis of the deposited data

How the results depend on the processing

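With a fold of 1.5 in place of the smaller one (a log2 ratio of 0.32), the members higher in KO livers numbered 2 in place of 8 and those lower 1 in place of 2. A pseudocount of 1, centring on the median of the genes averaging 10 or more, or keeping only members averaging 10 or more, left these numbers between 6 and 10 higher and at 2 lower, and the median log2 ratio between 0.16 and 0.21. A term for the libraries with the largest size factor raised the genes with an adjusted p under 0.05 from 0 to 2, neither a member. Members whose libraries did not overlap numbered 1, and 2 with reads not normalized (*Cx3cr1* and *Cd14*). They numbered 1 to 2 with each library left out, which can only add to them and so tests nothing of *Cx3cr1*: *Ptprc* was added without the KO 1.31 library, *Ms4a7* without KO 0.886, *Aif1* without WT 1.22, *Marco* without WT 0.879 and *Cd14* without WT 0.818. Without both libraries with the largest size factor, a choice made after seeing the data, they numbered 3. Of 117 alternative log2 differences of members in limma, 109 kept their side and 8 changed sign, each with an adjusted p over 0.98: *Timd4* (0.043 with TMM size factors, 0.17, 0.02 and 0.0047 without the KO 1.04, WT 0.879 and WT 0.818 libraries), *Cybb* (-0.13 without KO 1.31), *Fcgr1* (-0.11 without KO 0.886) and *Msr1* (0.02 without KO 0.886 and 0.19 without WT 1.22). With each library left out, these 4 ranged from -0.18 to 0.17, from -0.13 to 0.51, from -0.11 to 0.40 and from -0.55 to 0.19. The causes were not tested. No paired analysis was possible because the genotypes share only the pool number 2 and the recovered libraries carry no pool number. Members with many reads have 1 value per genotype and no replicate check, and the 3 libraries of a genotype limit what the others can show.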

Other observations

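Inflammatory cytokines and chemokines, of which 13 of 15 were found, had a median log2 ratio of 0.01, with 8 higher and 5 lower in KO livers. The 5 that averaged 10 or more reads had a median of -0.25, with 2 higher and 3 lower. Of the 3 lower, 2 were beyond a log2 ratio of 0.32, against 16.4% of all genes at that level. The recovered reads of the 13 genes summed to 131, 115 and 106 in the KO 1.31, 1.04 and 0.886 libraries and to 125, 131 and 143 in the WT 1.22, 0.879 and 0.818 libraries. *Cxcl10*, a chemokine induced by interferon, held 16.0, 21.2 and 16.9 normalized reads in KO and 22.0, 25.0 and 47.7 in WT libraries. Every KO library was below every WT library, as in 2.85% of the 5994 genes with a sum of at least 10. *Cxcl10* was named for the size of its log2 ratio, so that share is no background for it. In limma its log2 difference was -0.70 (SE 0.46), with an adjusted p of 0.999. *Il1b*, the main cytokine of the inflammasome, held 19.8, 15.4 and 4.52 in KO and 19.6, 12.5 and 19.6 in WT libraries, which overlap.

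Of the 9 genes of lipid-associated macrophages, 6 were higher and 3 lower in KO livers, with a median log2 ratio of 0.24. *Gpnmb*, a glycoprotein of lysosomes under lipid load, was at 9.50 in WT and 15.7 in KO livers, with recovered values of 29.7, 7.72 and 14.7 in KO and 2.45, 12.5 and 8.56 in WT libraries. *Fabp5*, a fatty acid binding protein, was at 139 in WT and 88.4 in KO livers, and *Cd9*, a tetraspanin, at 146 and 106. Other liver cells express some of these genes as well.

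Neutrophil genes, 12 found, had a median log2 ratio of 0.06, with a recovered sum between 64.7 and 85.8 in KO and between 51.4 and 67.1 in WT libraries. *Mmp9* was at 8.78 in WT and 12.9 in KO livers, and *Csf3r* at 24.8 and 29.0. Dendritic cell genes, 8 found, had a median of 0.07, with sums from 57.6 to 77.7 in KO and from 50.04 to 79.2 in WT libraries.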
